A study of Populus alba x Populus glandulosa with 18 samples.

Results

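The growing shoot tip of wild-type 84K poplar was compared with the bark and cambium of its older stem. Of the 18 libraries in the series 6 were used, chosen by their labels: 3 of the primary stem (PS) and 3 of the bark (BA), all from trees 2 months old that carried no transgene. 84K is the hybrid *Populus alba* × *P. glandulosa*. PS pooled the apex with the elongating internodes directly below it, so the sample called shoot apical meristem in the labels also held young internode tissue. BA was taken from internodes further down, with differentiating phloem and cambial cells, and the labels call it cambium. The study used 3 trees per genotype. The labels do not say which tree gave which library, PS and BA may come from the same trees, and the p-values below measure only the spread between these libraries. Overexpression trees (*PagDET2*-OE), which carry a construct for a steroid reductase of brassinosteroid synthesis, gave 3 PS and 3 BA libraries that share no sample with the wild-type ones. They were used only for a repeat of the tissue comparison, and the labels do not name their transgenic line. The xylem side of the wild-type stem (XY, 3 libraries) was used only for levels set side by side.

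In the shoot tip, a dome of dividing cells gives rise to leaves and to the primary stem, whose cells elongate before they mature. Further down, a ring of cambial cells between xylem and phloem widens the stem, making wood towards the inside and phloem towards the outside. Meristem size at the tip is held by the transcription factor WUS and the CLV peptide pathway. The peptide CLE41 from the phloem, its receptor PXY and the transcription factor WOX4 hold the cambium in a related way. Epidermis covers the young stem and leaves with wax and cutin, and in older stems the outer tissue is replaced by a corky periderm. Roles given below are those of the *Arabidopsis* genes whose symbols the deposited table assigns to the poplar gene models.

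Library totals lay between 9270918 and 9734848 fragment counts in PS, and between 8407928 and 11379931 in BA. Replicates 1 and 2 lay closer to each other than to replicate 3 in both tissues. Their counts differed by a chi-square per degree of freedom of 2.16 in PS and 2.28 in BA, where sampling noise alone gives 1, against 4.23 and 4.27 in PS and 4.74 and 4.60 in BA for pairs with replicate 3. For the median gene the ratio to sampling noise was 1.16 in PS and 1.18 in BA between replicates 1 and 2. For pairs with replicate 3 it was 2.262 and 2.325 in PS, and 2.461 and 2.631 in BA. So the median gene differed between replicates 1 and 2 by little more than sampling noise. Over all genes they differed by more than that and were counted as separate samples. They may share more of their handling than the third does, and the p-values below may then be too small. A pooled sample with fewer cells of a type cannot be told apart from one whose cells hold less RNA, and that holds for every comparison below. Levels are given in CPM, a count divided by its TMM-adjusted library total, for replicates 1, 2 and 3. Log2 fold changes are PS minus BA, so that a positive value means higher in PS. Where all 3 libraries of a tissue held 0 counts, the fold is a lower bound set against 3 counts over the group, which is 0.106 CPM in PS and 0.101 CPM in BA. For 1 to 3 counts over a tissue the ratio is given with its counting interval. These limits cover counting error only.

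A DEG had an adjusted p of at most 0.05 (edgeR's quasi-likelihood test, Benjamini-Hochberg) and a change of at least 2-fold. Of 24528 genes tested, 3573 were DEGs higher in PS (14.6%) and 3426 were DEGs lower in PS (14.0%), so that 28.5% were DEGs in either direction. The median log2 fold change over all genes tested was 0.01. Without the fold limit, 70.1% of the genes tested had an adjusted p of at most 0.05 (35.8% higher and 34.3% lower in PS), which is why only DEGs are counted here. The higher DEGs held more large changes than the lower ones. At least 10-fold differences were reached by 908 DEGs higher in PS and 431 DEGs lower in PS, and at least 100-fold by 328 and 99 of them. Of the DEGs higher in PS 218 had 0 counts in all BA libraries, and of those lower in PS 74 had 0 counts in all PS libraries.

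**Figure D1:**
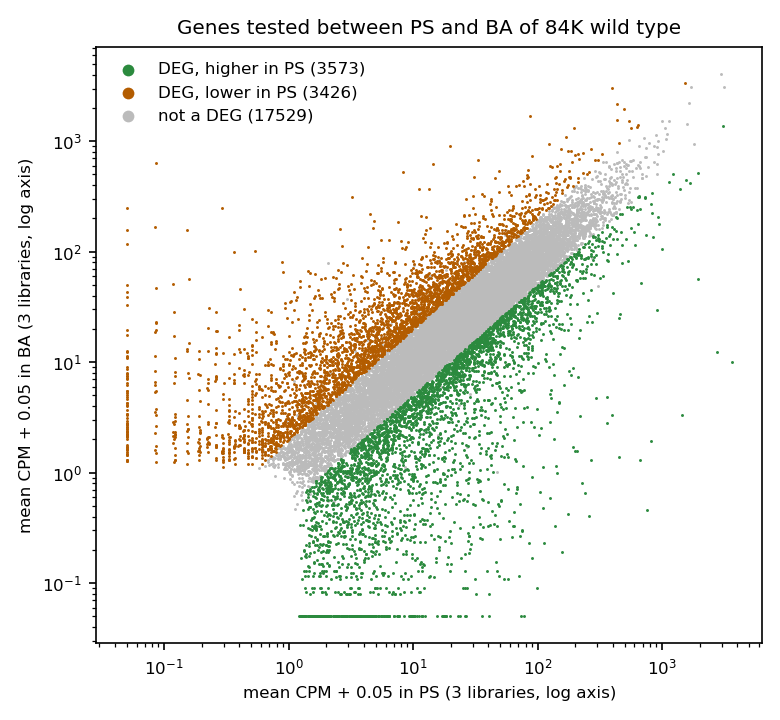
Mean CPM of the 3 PS libraries (x axis) against that of the 3 BA libraries (y axis) for the 24528 genes tested, on log axes with 0.05 added. Green points are the 3573 DEGs higher in PS, orange points the 3426 DEGs lower in PS and grey points the other 17529 genes. The lowest row of green points holds genes with 0 counts in BA, and the leftmost column of orange points genes with 0 counts in PS.

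The DEGs were described with 32 gene lists picked from the symbols and descriptions in the deposited table. Lists with the highest medians were storage proteins (5.24), epidermis, cuticle and wax (5.14), chitinases and related proteins (2.13) and expansins (1.97). Those of cambium (-1.34), gene models like organelle genes (-1.26), xylem (-1.19) and phloem (-1.08) had the lowest. With the genes that had 0 counts in a tissue set at their bound, the medians of storage proteins and of the epidermis were 5.03 and 4.34. Marker lists of several cell types thus moved at the same time, and their part in the changes of other genes was not tested. The count of DEGs in each list stands against 14.6% higher and 14.0% lower over all genes tested.

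**Figure D2:**
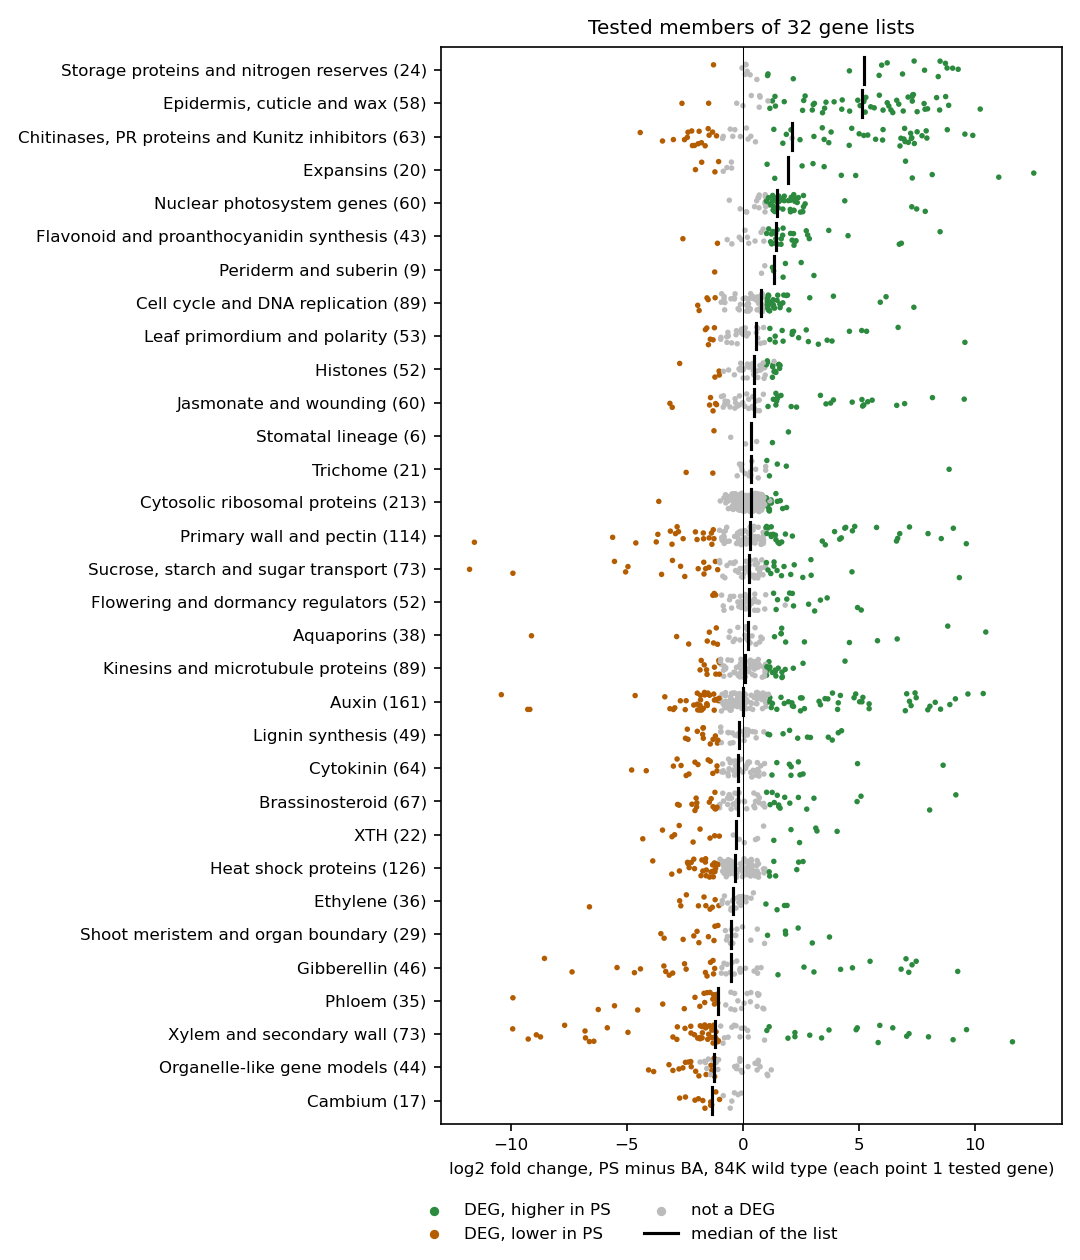
Log2 fold change (x axis, PS minus BA in 84K wild type) of each tested member of the 32 gene lists, 1 point a gene, with the number tested in brackets and the lists ordered by their median (black bar). Green points are DEGs higher in PS, orange points DEGs lower in PS and grey points are not DEGs. The list of cambium genes has no green point, and the list of nuclear photosystem genes has no orange point.

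Genes of the shoot meristem and of organ boundaries were not higher in PS as a group. For this list 29 of 46 members were tested, of which 6 were DEGs higher in PS and 10 were DEGs lower in PS, with a median log2 fold change of -0.49. *STM* (listed as BUM), a homeobox gene that keeps meristem cells undifferentiated, had 44.8, 41.9 and 49.3 CPM in PS, against 62.4, 65.1 and 63.2 CPM in BA for Potri.004G004700 (log2 fold change -0.49 ± 0.077 (SE), adjusted p = 2.66e-05). The groups did not overlap, but the difference was smaller than 2-fold. Its copy Potri.011G011100 had 69.4, 61.5 and 64.7 CPM in PS, against 77.7, 78.0 and 77.4 CPM in BA, a log2 fold change of -0.25. *KNAT1* (listed as BP, Potri.002G113300), a related homeobox gene, had 391, 362 and 407 CPM in PS, against 300.0, 314 and 298 CPM in BA (log2 fold change 0.35 ± 0.055 (SE), adjusted p = 2.86e-05), which was higher in every PS library and short of 2-fold. The 3 gene models differed between tissues by 1.40-fold, 1.19-fold and 1.27-fold, and all were expressed in every library.

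The receptor kinase gene *CLV1*, which restricts the stem cell domain, was split between its copies. Potri.005G241500 (chromosome 5, 24753707 to 24757099) had 26.4, 31.3 and 32.9 CPM in PS, against 305, 319 and 329.9 CPM in BA (log2 fold change -3.39 ± 0.077 (SE), adjusted p = 8.03e-16). The copy Potri.002G019900 had 2.90, 3.07 and 2.57 CPM in PS, against 0, 0 and 0.533 CPM in BA (log2 fold change 3.74 ± 0.57 (SE), adjusted p = 2.5e-05), and fell short of 2-fold by limma on log2(FPKM + 1) (0.90). So one copy was a DEG lower in PS and the other a DEG higher in PS. The *AINTEGUMENTA*-like genes, AP2 transcription factors of dividing tissue, fell in PS. *AIL5* had 60.4, 62.0 and 66.5 CPM in PS, against 241, 241 and 261 CPM in BA for Potri.018G091600 (log2 fold change -1.97 ± 0.063 (SE), adjusted p = 4.86e-14). The other *AIL5* copy (Potri.006G167700) and *AIL6* (Potri.007G011600) had log2 fold changes of -2.57 and -3.53. All 3 tested copies of *LSH3*, a gene of organ boundaries, were DEGs lower in PS, with 36.3, 36.0 and 37.2 CPM in PS, against 126, 125 and 155 CPM in BA for Potri.002G037500. Of *LOB* 1 of 3 tested copies was a DEG lower in PS. Higher in PS were the copy Potri.015G082200 (7.42, 9.20 and 9.52 CPM in PS, against 1.67, 1.29 and 1.95 CPM in BA) and the *CENTRORADIALIS*-like gene *ATC* Potri.004G203900 (3.55, 4.81 and 4.92 CPM in PS, against 0.953, 0.299 and 0.444 CPM in BA), which in *Arabidopsis* delays flowering. Of the homeobox gene *ATH1*, which acts with KNOX proteins at the apex, Potri.018G054700 was higher in PS (log2 fold change 1.84) and Potri.006G230700 was lower (-1.07), but the second fell short of 2-fold without PS replicate 2 (-0.85) and without BA replicate 1 (-0.97). The *ULT* copy (Potri.019G104500) was a DEG lower in PS (-2.11), while Potri.013G145400 had 0.94 and was no DEG. Of the homeobox genes *KNAT6* and *BLH9*, 1 of 6 and 1 of 3 tested copies were DEGs higher in PS, and 0 were lower.

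Several defining markers of the meristem had too few counts to be tested. Both copies of *WUS* (listed as PGA6), the gene that marks the organizing centre, had 0 counts in all PS libraries, which allows up to 0.106 CPM. In BA Potri.007G012100 had 0 counts and Potri.005G114700 had 3. The 5 copies of *CUC2* (ANAC098) and *CUC3* (ANAC031), which mark organ boundaries, had between 0 and 21 counts over the PS libraries, and between 0 and 21 over the BA libraries. *LFY*, which starts flowers, had 8 counts in PS and 3 in BA, and the 3 copies of *LAS*, which starts side shoots, had 5 to 9 counts in PS and 4 to 11 in BA. Expression of *WUS* in PS was thus not detectable at this depth.

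Genes of young leaves rose more often than they fell. For leaf primordia and leaf polarity 53 of 65 members were tested, of which 20 were DEGs higher in PS and 6 were DEGs lower in PS, with a median of 0.59. The summed level of the list was nonetheless slightly lower in PS. It was 1445 to 1493 CPM in the PS libraries, against 1505 to 1573 CPM in the BA libraries. *YAB5*, a YABBY transcription factor of the lower leaf side, had 9.14, 7.57 and 12.9 CPM in PS, against 0 counts in all 3 BA libraries for Potri.018G129800, so that it was at least 97.5-fold higher in PS (adjusted p = 7.06e-09). Its copy Potri.006G067800 had 7.31, 8.39 and 9.19 CPM in PS, against 0, 0 and 0.178 CPM in BA, a count ratio of 123 PS over BA (95% counting interval 33.7 to 1020). *AS1*, a MYB gene that represses KNOX genes in leaves, had 44.0, 45.5 and 39.0 CPM in PS, against 2.74, 1.19 and 1.51 CPM in BA for Potri.006G085900 (log2 fold change 4.60 ± 0.18 (SE), adjusted p = 2.03e-12). *KAN1* (listed as KAN, Potri.004G082400), which gives the lower leaf side its identity, had 20.1, 20.3 and 20.3 CPM in PS, against 2.74, 2.29 and 3.91 CPM in BA. Growth-regulating factors, which promote cell division in leaves, had 16 tested members, of which 10 were DEGs higher in PS and none was lower. *GRF1* Potri.014G012800 had 31.0, 33.9 and 36.0 CPM in PS, against 2.38, 2.29 and 2.31 CPM in BA (log2 fold change 3.85 ± 0.14 (SE), adjusted p = 2.29e-13). Their partner *AN3* (Potri.013G043700) had a log2 fold change of 1.74.

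Genes of this list that also act in vascular tissue moved both ways. *REV* (listed as IFL, Potri.009G014500), a class III homeodomain gene of upper leaf side and vasculature, had 75.7, 82.0 and 81.1 CPM in PS, against 223, 223 and 219 CPM in BA (log2 fold change -1.48 ± 0.058 (SE), adjusted p = 6.93e-13). *PHB* (ATHB-14, Potri.001G372300), a gene of the same class, had 189, 191 and 186 CPM in PS, against 189, 178 and 190.4 CPM in BA, and the groups overlapped (log2 fold change 0.02 ± 0.054 (SE), adjusted p = 0.709). *ANT*, a growth gene of both organ primordia and cambium, had 5 tested copies, of which 1 was a DEG higher in PS and 3 were lower. Potri.002G114800 had 53.5, 56.3 and 56.9 CPM in PS, against 167, 168 and 175 CPM in BA, and Potri.005G148400 had 11.5, 13.4 and 9.94 CPM in PS, against 1.55, 1.99 and 3.82 CPM in BA. Their log2 fold changes were -1.61 and 2.19. *ARF4* (Potri.009G011800), an auxin response factor of the lower leaf side, rose with a log2 fold change of 1.17.

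Cambium regulators were lower in PS, and none was a DEG higher in PS. For this list 17 of 20 members were tested, of which 0 were DEGs higher in PS and 11 were DEGs lower in PS, with a median of -1.34. The signal peptide gene *CLE41*, expressed in phloem, had 33.8, 39.1 and 35.8 CPM in PS, against 197, 206 and 198 CPM in BA for Potri.002G241300 (log2 fold change -2.47 ± 0.068 (SE), adjusted p = 7.94e-15). Its receptor gene *PXY* had 142, 144 and 146 CPM in PS, against 614, 618 and 572 CPM in BA for Potri.001G126100 (chromosome 1, 10220679 to 10224788, log2 fold change -2.06 ± 0.053 (SE), adjusted p = 3.77e-15) and 201, 206 and 195 CPM in PS, against 767, 799 and 702 CPM in BA for Potri.003G107600. All PS libraries were below all BA libraries for these genes. *WOX4*, the homeobox gene that keeps cambial cells dividing, had 70.2, 72.5 and 80.3 CPM in PS, against 196, 195 and 191 CPM in BA for Potri.014G025300 (log2 fold change -1.38 ± 0.063 (SE), adjusted p = 5.11e-12). The *WOX4* copy Potri.002G124100 was lower by less than 2-fold (-0.84), as was the peptide gene *CLE44* Potri.001G049700 (-0.36).

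The procambial homeobox gene *ATHB-8* fell in both copies. Potri.006G237500 had 68.7, 74.1 and 68.4 CPM in PS, against 208, 217 and 228 CPM in BA (log2 fold change -1.63 ± 0.062 (SE), adjusted p = 4.87e-13), and the copy Potri.018G045100 had a log2 fold change of -1.34. *TMO6* (Potri.005G134200), a DOF transcription factor downstream of auxin, had 20.2, 18.5 and 21.5 CPM in PS, against 40.1, 47.5 and 46.6 CPM in BA. *LBD4* Potri.003G149000, which acts at the border of procambium and phloem, had 6.88, 6.14 and 5.45 CPM in PS, against 15.2, 15.5 and 17.4 CPM in BA. The log2 fold changes of *TMO6* and this *LBD4* copy were -1.16 and -1.38. Summed over the list, levels were 744 to 764 CPM in the PS libraries, against 2341 to 2486 CPM in the BA libraries. No cambium gene of the tested list was absent from PS. By the authors' FPKM, *PXY* was also measured in XY (46.2 FPKM in PS, 191 in BA and 337 in XY for Potri.001G126100), whereas *CLE41* Potri.002G241300 had 54.2 FPKM in PS, 297 in BA and 6.36 in XY.

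Phloem genes were also lower in PS. For this list 35 of 57 members were tested, of which 0 were DEGs higher in PS and 18 were DEGs lower in PS, with a median of -1.08 and summed levels of 1095 to 1121 CPM in the PS libraries, against 2886 to 2916 CPM in the BA libraries. *SUC2*, the sucrose carrier that loads the phloem, had the largest difference. Potri.013G115200 (chromosome 13, 12845307 to 12848795) had 0.323, 0.409 and 0 CPM in PS, against 257, 241 and 249.7 CPM in BA (log2 fold change -9.91 ± 0.18 (SE), adjusted p = 2.47e-14). Potri.019G085800 had 19.0, 20.04 and 20.4 CPM in PS, against 893, 928 and 923 CPM in BA (log2 fold change -5.53 ± 0.061 (SE), adjusted p = 1.86e-19). The first copy was near 0 in PS and in XY (0.145 FPKM in PS, 147 in BA and 0.569 in XY), and the second was measured in BA and in XY (10.7 FPKM in PS, 491 in BA and 477 in XY).

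*APL*, the transcription factor of phloem identity, had 13.2, 12.3 and 12.8 CPM in PS, against 75.0, 72.4 and 72.0 CPM in BA for Potri.008G081800 (log2 fold change -2.52 ± 0.083 (SE), adjusted p = 7.34e-14) and 36.1, 39.5 and 38.9 CPM in PS, against 79.0, 80.1 and 91.0 CPM in BA for Potri.010G174100 (log2 fold change -1.13 ± 0.077 (SE), adjusted p = 1.04e-09). Phloem protein 2 genes, which encode lectins of the sieve tubes, had the sharpest fall in *PP2-A10* Potri.015G120100 (1.40, 1.23 and 1.71 CPM in PS, against 36.8, 33.3 and 31.1 CPM in BA), while its neighbour Potri.015G120200 had 191, 178 and 169.9 CPM in PS, against 494, 495 and 446 CPM in BA. Their log2 fold changes were -4.53 and -1.41. The models adjoin each other on chromosome 15, and how reads were divided between them is not known. *PP2-A1* Potri.012G120400 fell by 2.06 on the log2 scale. The sulfate transporter gene *SULTR2;1* (AST68, Potri.005G079000) had 0.537, 0.204 and 0.428 CPM in PS, against 30.4, 28.2 and 31.5 CPM in BA, a log2 fold change of -6.23. Not all phloem genes were DEGs. The receptor gene *BAM3* Potri.003G157300, which acts in early sieve elements, had a log2 fold change of -0.73, and the callose synthase *GSL7* Potri.002G058700, which lines sieve pores, had -0.35. The potassium channel gene *AKT2* (Potri.003G018800) went the other way, with 127, 125 and 128 CPM in PS, against 67.6, 66.9 and 67.7 CPM in BA, and stayed short of 2-fold (log2 fold change 0.91 ± 0.058 (SE), adjusted p = 4.54e-10).

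**Figure D3:**
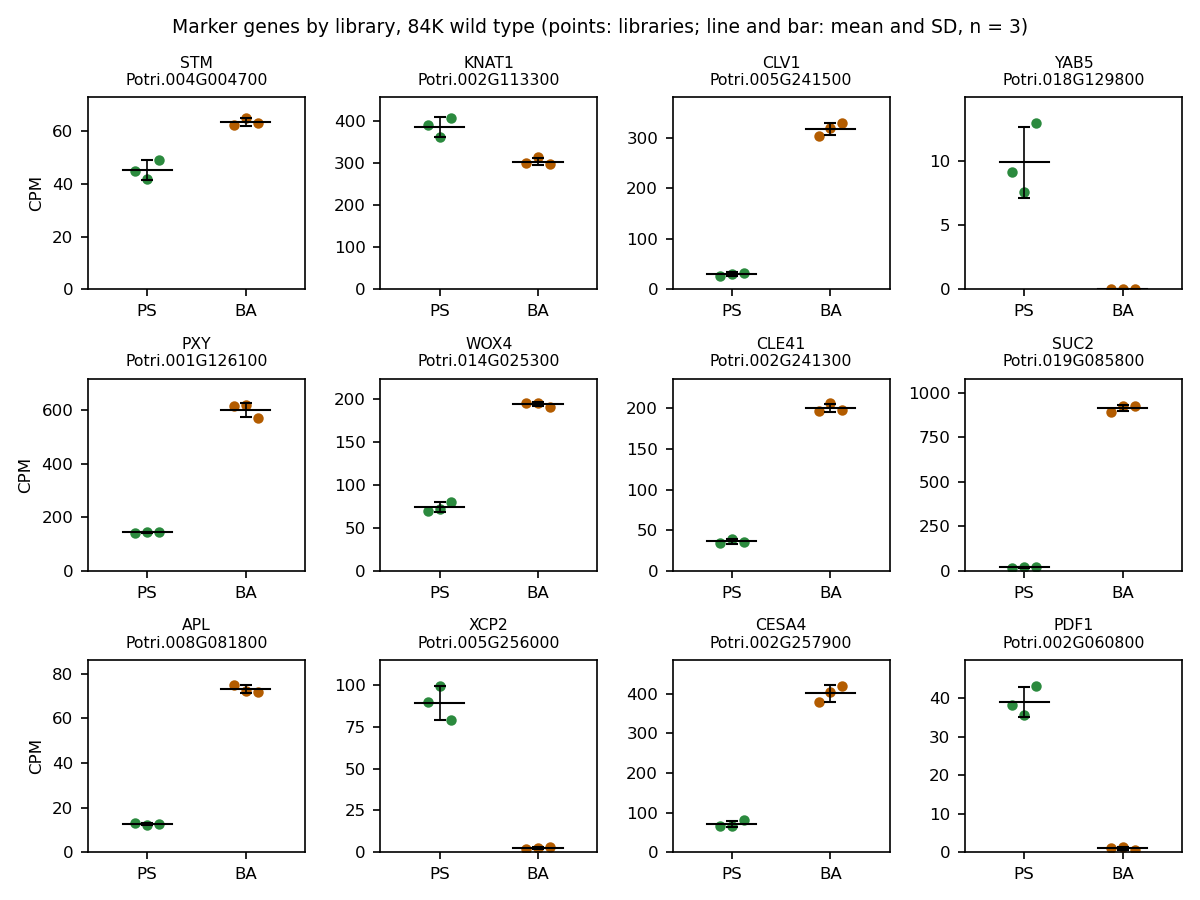
CPM (y axis, each panel with its own scale from 0) of 12 marker genes in the 3 PS libraries (green, left) and the 3 BA libraries (orange, right) of 84K wild type. Points are libraries, and lines and bars give the mean and SD (n = 3). *CLV1*, *PXY*, *WOX4*, *CLE41*, *SUC2*, *APL*, *CESA4* and *STM* are lower in PS, and *KNAT1*, *YAB5*, *XCP2* and *PDF1* are higher.

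Xylem genes moved both ways. For xylem and secondary wall 73 of 104 members were tested, of which 19 were DEGs higher in PS and 41 were DEGs lower in PS, with a median of -1.19. The 19 higher DEGs included 5 copies of *XCP1*, *XCP2* and *MC9*, which act in vessel cell death, and 9 copies of the laccases *LAC11* and *LAC17*. The tested copy of *BFN1*, a nuclease of cell death, was no DEG. The 41 lower DEGs included 5 copies of *CESA4*, *CESA7* and *CESA8*. The protease gene *XCP1* (Potri.004G207600, chromosome 4, 21630950 to 21632460), which clears the contents of dying vessel cells, had 38.2, 36.8 and 47.5 CPM in PS, against 0 counts in all 3 BA libraries, at least 404-fold higher in PS (adjusted p = 4.15e-13). *XCP2*, a protease of the same role, had 89.5, 99.0 and 78.8 CPM in PS, against 2.26, 2.79 and 3.46 CPM in BA for Potri.005G256000 (log2 fold change 4.94 ± 0.13 (SE), adjusted p = 9.86e-15), and 41.0, 41.2 and 43.2 CPM in PS, against 0.357, 0.995 and 2.58 CPM in BA for Potri.002G005700. The metacaspase gene *MC9* (Potri.016G024500), which also acts in vessel cell death, had 10.9, 9.41 and 10.8 CPM in PS, against 0 counts in all 3 BA libraries, at least 102-fold higher in PS. All 3 copies of the laccase gene *LAC11* were DEGs higher in PS, with 6.77, 6.34 and 7.70 CPM in PS, against 0 counts in all 3 BA libraries for Potri.007G023300 and 15.4, 15.3 and 17.2 CPM in PS, against 0, 0 and 0.444 CPM in BA for Potri.009G102700. Of 9 tested copies of *LAC17*, a laccase of lignin assembly, 6 were DEGs higher in PS and 2 were lower.

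The cellulose synthase genes of the secondary wall fell together. *CESA4* (Potri.002G257900) had 67.6, 66.0 and 80.7 CPM in PS, against 379, 405 and 420.2 CPM in BA (log2 fold change -2.49 ± 0.075 (SE), adjusted p = 7.07e-14), *CESA7* (Potri.006G181900) had 23.5, 23.8 and 25.1 CPM in PS, against 167, 174 and 170.2 CPM in BA (log2 fold change -2.82 ± 0.066 (SE), adjusted p = 1.16e-15), and *CESA8* (Potri.004G059600) had 39.9, 37.2 and 49.2 CPM in PS, against 289, 293 and 319 CPM in BA (log2 fold change -2.84 ± 0.091 (SE), adjusted p = 5.18e-12). *IRX9* (Potri.016G086400), a gene of xylan synthesis, had 11.0, 11.6 and 10.8 CPM in PS, against 32.6, 30.3 and 32.0 CPM in BA (log2 fold change -1.51 ± 0.1 (SE), adjusted p = 9.98e-10). *COBL4* (Potri.004G117200), needed for cellulose deposition, had 0 counts in all 3 PS libraries, against 5.72, 8.76 and 8.79 CPM in BA, at least 75.0-fold lower in PS. Fasciclin-like arabinogalactan protein genes *FLA12* were DEGs lower in PS in all 6 tested copies. Potri.004G210600 had 0 counts in all 3 PS libraries, against 11.4, 11.4 and 14.5 CPM in BA, and Potri.009G012200 had 0.107, 0 and 0 CPM in PS, against 19.8, 25.3 and 23.5 CPM in BA, a count ratio of 656 BA over PS (95% counting interval 117 to 25900). These copies are alike, and reads may have been divided between them. *NST1* (ANAC043, Potri.011G153300), a master switch of secondary walls in fibres, and the chitinase-like gene *CTL2* (Potri.010G141600) had log2 fold changes of -1.15 and -1.74.

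In the authors' FPKM, which scale counts by gene length, these xylem genes were also measured in XY. *XCP2* Potri.005G256000 had 81.9 FPKM in PS, 2.58 in BA and 936 in XY, and *CESA4* Potri.002G257900 had 22.1 FPKM in PS, 123 in BA and 1589 in XY. *XCP1* was higher in PS than in XY (31.3 FPKM in PS, 0 in BA and 19.4 in XY). *FLA12* Potri.013G014200 had 0.231 FPKM in PS, 20.7 in BA and 1509.6 in XY. Summed over the list, FPKM were 585 to 623 in PS, 1281 to 1347 in BA and 29793 to 31383 in XY. The laccase copy *LAC11* Potri.009G102700 had 9.50 FPKM in PS, 0.0869 in BA and 13.5 in XY. Levels in XY are set side by side only and were not tested.

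**Figure D4:**
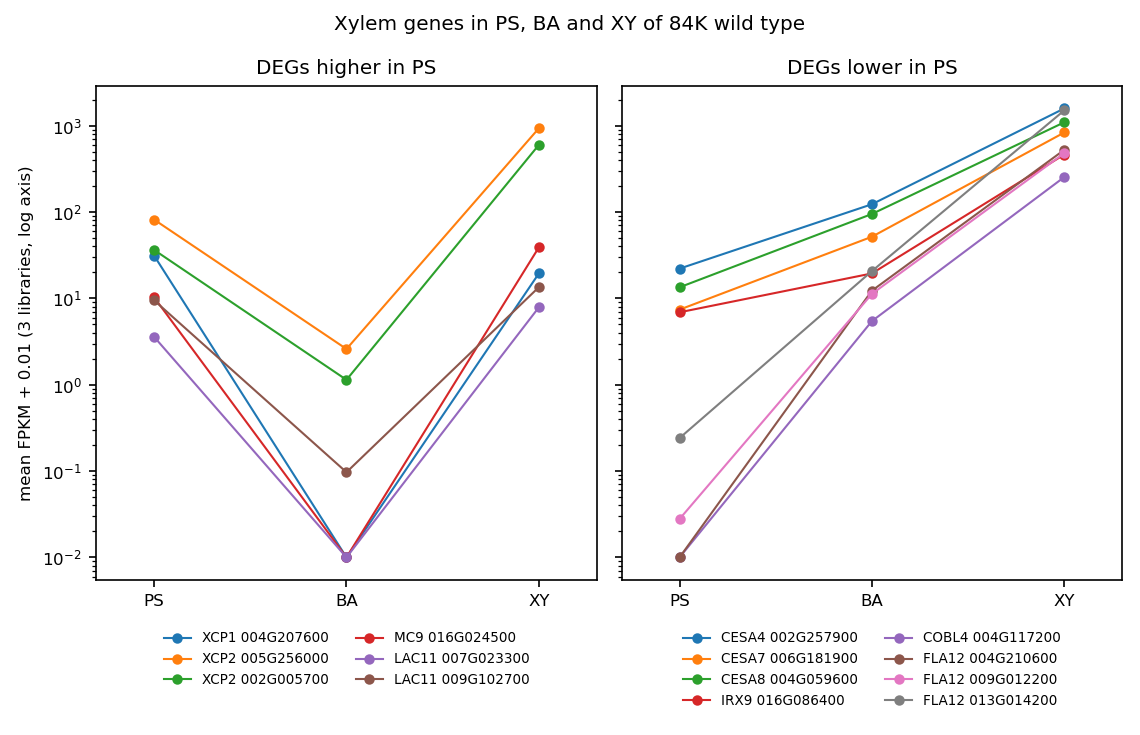
Mean FPKM plus 0.01 (y axis, log scale; 3 libraries a tissue) in PS, BA and XY of 84K wild type for 6 DEGs higher in PS (left) and 8 DEGs lower in PS (right) among the xylem genes named, each line 1 gene model. The left lines dip in BA, and the right lines rise from PS through BA to XY. A point at 0.01 is a gene listed at 0.

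Genes of the epidermis and its cuticle were higher in PS by more than those of any other marker list. Here 58 of 98 members were tested, of which 49 were DEGs higher in PS and 2 were DEGs lower in PS, with a median of 5.14. Of the 98 members 47 had 0 counts in all BA libraries and 30 had 0 counts in all PS libraries, so the members tested are mainly those with counts in PS. Summed levels were 1387 to 1420.5 CPM in the PS libraries, against 332 to 350.3 CPM in the BA libraries. *PDF1*, a gene of the outer cell layer, had 38.1, 35.5 and 43.1 CPM in PS, against 1.19, 1.29 and 0.622 CPM in BA for Potri.002G060800 (log2 fold change 5.24 ± 0.18 (SE), adjusted p = 1.63e-13) and 41.7, 36.8 and 42.1 CPM in PS, against 1.31, 0.896 and 0.267 CPM in BA for Potri.005G200900. The homeodomain gene *HDG2* (Potri.014G152000), a regulator of that layer, had 10.9, 14.4 and 10.8 CPM in PS, against 0, 0.299 and 0 CPM in BA, a count ratio of 119 PS over BA (95% counting interval 40.5 to 582). *MYB106* (Potri.008G089700), which controls cuticle and surface cell shape, had 14.7, 15.7 and 16.1 CPM in PS, against 0 counts in all 3 BA libraries, at least 154-fold higher in PS (adjusted p = 1.43e-11).

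Among enzymes of wax synthesis, *CER1* (Potri.014G180300, chromosome 14, 15065442 to 15068707), which makes alkanes, had 83.0, 86.9 and 85.7 CPM in PS, against 0.238, 0.299 and 0 CPM in BA (log2 fold change 8.88 ± 0.21 (SE), adjusted p = 2.39e-15). Its partner *CER3* (Potri.018G099400) had 38.1, 43.3 and 38.3 CPM in PS, against 1.79, 1.59 and 1.51 CPM in BA. *CER6* (Potri.010G125300), which elongates the fatty acids of wax, had 29.2, 32.8 and 29.8 CPM in PS, against 2.14, 1.89 and 1.95 CPM in BA. The fatty acid elongase gene *FDH* (Potri.006G218000) had 61.6, 64.1 and 66.2 CPM in PS, against 0.476, 0.0995 and 0.267 CPM in BA (log2 fold change 7.82 ± 0.19 (SE), adjusted p = 1.46e-15), and *KCS19* (Potri.010G212600), of the same family, was at least 54.7-fold higher in PS. For cutin, *LACS2* (Potri.009G109900), an acyl-CoA synthetase, had 73.1, 73.6 and 71.8 CPM in PS, against 12.98, 9.95 and 11.1 CPM in BA, and the acyltransferase gene *DCR* (Potri.015G147300) had 140.4, 149 and 150.1 CPM in PS, against 43.0, 39.1 and 44.9 CPM in BA. Both changed less than the wax genes named, with log2 fold changes of 2.69 and 1.79. Of *ABCG11*, a transporter that exports lipids to the surface, 3 of 5 tested copies were DEGs higher in PS and 2 were lower, which are the 2 lower DEGs of this list. Potri.005G073100 had 4.62, 3.89 and 5.35 CPM in PS, against 27.3, 29.6 and 28.3 CPM in BA (log2 fold change -2.62 ± 0.13 (SE), adjusted p = 2.19e-11).

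The lists of other surface structures were small. Of 24 members for stomata, the leaf pores, 6 were tested. *ERL1* receptor kinase genes, which space stomata, were DEGs higher in PS, with 4.73, 5.32 and 5.88 CPM in PS, against 1.31, 1.29 and 1.42 CPM in BA for Potri.012G130400 and 8.82, 5.11 and 6.74 CPM in PS, against 2.86, 1.99 and 3.55 CPM in BA for Potri.015G132200. By limma on log2(FPKM + 1) both fell short of 2-fold (0.90 and 0.75), and by glmTreat against a 2-fold change Potri.015G132200 had an adjusted p of 0.195. *MYB88* (Potri.010G093000), which ends guard cell divisions, was lower in PS (-1.24). The defining genes *SPCH* (0 counts in both tissues for both copies) and *MUTE* (2 counts in PS and 0 in BA) were not tested. In the trichome list 21 of 22 members were tested, of which 5 were DEGs higher in PS and 2 were DEGs lower in PS, with *GIS* (Potri.006G195100), a zinc finger gene of trichome initiation, at 5.38, 6.75 and 6.31 CPM in PS, against 0 counts in all 3 BA libraries. The list of periderm and suberin had 9 of 30 members tested, of which 6 were DEGs higher in PS and 1 was lower. *GPAT5* (Potri.010G201200) and *KCS2* (Potri.010G079400), both of suberin synthesis, had 4.30, 6.54 and 6.20 CPM in PS, against 1.07, 1.19 and 0.711 CPM in BA, and 4.30, 5.32 and 5.13 CPM in PS, against 0.596, 0.597 and 0.533 CPM in BA. So levels of this list were low in both tissues, at 54.1 to 64.1 CPM in the PS libraries, against 24.2 to 29.2 CPM in the BA libraries in sum.

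Nuclear genes of the photosystems were higher in PS. In this list 60 of 62 members were tested, of which 44 were DEGs higher in PS and 0 were DEGs lower in PS, with a median of 1.48. Summed levels were 9895 to 10961 CPM in the PS libraries, against 3789 to 3837 CPM in the BA libraries. *LHCB2* (Potri.002G221400), a light-harvesting protein of photosystem II, had 774, 780.1 and 934 CPM in PS, against 331, 340.3 and 340.4 CPM in BA (log2 fold change 1.3 ± 0.066 (SE), adjusted p = 6.92e-11). The light-harvesting gene *LHB1B1* Potri.005G239300 had 522, 506 and 572 CPM in PS, against 80.2, 84.9 and 82.3 CPM in BA (log2 fold change 2.69 ± 0.06 (SE), adjusted p = 7.67e-16). *PSBO* (MSP-1, Potri.007G033700), a subunit of the oxygen-evolving complex, had 533, 544 and 613 CPM in PS, against 159, 165 and 163 CPM in BA. *PSBR*, which stabilises that complex, had 762, 745 and 709.6 CPM in PS, against 146, 156 and 119.9 CPM in BA for Potri.011G142300, and the copy Potri.001G438700 had 47.3, 50.9 and 52.4 CPM in PS, against 0.238, 0 and 0.355 CPM in BA. Gene models that resemble organelle genes went the other way, with 44 of 162 tested, 17 DEGs lower in PS and 0 higher. They held few counts, at 0.0136%, 0.0139% and 0.0385% of the totals of PS replicates 1 to 3, and 0.0272%, 0.0283% and 0.0575% of those of BA. In both tissues the third replicate had the largest share. Their part in other results was not tested, but without these models the counts of DEGs were 3568 higher and 3413 lower.

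Cell cycle genes were more often higher in PS than lower. Here 89 of 105 members were tested, of which 33 were DEGs higher in PS and 5 were DEGs lower in PS, with a median of 0.79 and summed levels of 2475 to 2506 CPM in the PS libraries, against 1597 to 1654 CPM in the BA libraries. The replication helicase genes *MCM3*, *MCM4*, *MCM5*, *MCM6* and *MCM7* were DEGs higher in PS in all their 6 tested copies. Of the ribonucleotide reductase gene *RNR1*, which makes the building blocks of DNA, all 3 tested copies were DEGs higher in PS. Of 11 B-type cyclins, which act in mitosis, 2 were DEGs higher in PS, and the 4 copies of the mitotic kinases *CDKB1;2* and *CDKB2;1* held 0 DEGs. *CYCD6;1*, a D-type cyclin of formative divisions, had 11.1, 10.7 and 12.1 CPM in PS, against 0.715, 0.896 and 0.622 CPM in BA for Potri.019G118600 (log2 fold change 3.91 ± 0.23 (SE), adjusted p = 1.19e-10) and 9.25, 10.02 and 12.7 CPM in PS, against 0, 0 and 0.355 CPM in BA for Potri.013G149000. *CYCD1;1* Potri.001G292300 had 5.16, 7.06 and 8.23 CPM in PS, against 0.834, 0.896 and 0.977 CPM in BA. *ICK5* Potri.004G142100, an inhibitor of cyclin-dependent kinases, had 9.03, 5.73 and 8.45 CPM in PS, against 0, 0 and 0.0888 CPM in BA, a count ratio of 229 PS over BA (95% counting interval 40.6 to 9080). Of 2 tested copies of *ICK5* 1 was a DEG higher in PS and 1 was lower. Of the related inhibitor *ICK6* 1 of 3 was a DEG lower in PS and 0 were higher. Genes listed as *CYCD3*, a cyclin that drives entry into the cycle, had 2 DEGs lower in PS among 5 tested copies and 0 higher. The 1 tested copy listed as *CYCD3;2* was a DEG higher in PS.

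Of 52 histone genes tested 13 were DEGs higher in PS and 4 lower, with a median of 0.47. An H2A gene, *HTA7* Potri.005G026500, had 61.2, 64.1 and 70.1 CPM in PS, against 20.8, 21.2 and 22.8 CPM in BA (log2 fold change 1.59 ± 0.084 (SE), adjusted p = 3.79e-11). Linker histone *HIS1-3*, known in *Arabidopsis* as a drought-induced H1, was lower in PS in both copies, with 84.2, 84.4 and 81.9 CPM in PS, against 565, 551 and 538 CPM in BA for Potri.005G116600 (log2 fold change -2.72 ± 0.053 (SE), adjusted p = 1.47e-16). The summed CPM of histone genes was lower in PS despite the positive median. It was 2955 to 3039.6 CPM in the PS libraries, against 3496 to 3699 CPM in the BA libraries. This sum includes *HIS1-3* Potri.005G116600, with means of 83.5 CPM in PS and 551 CPM in BA. Summed FPKM overlapped, at 4940 to 5046 in PS and 4650 to 5086 in BA. For kinesins and microtubule proteins 89 of 106 members were tested, of which 18 were DEGs higher in PS (20.2%) and 10 were DEGs lower in PS (11.2%). The α-tubulin gene *TUA4* (TOR2, Potri.009G085100) had 2884, 2929 and 3428 CPM in PS, against 1292, 1329.9 and 1481 CPM in BA (log2 fold change 1.17 ± 0.073 (SE), adjusted p = 5.12e-08), and the β-tubulin gene *TUB6* Potri.003G126800 had 83.7, 88.0 and 73.3 CPM in PS, against 4.64, 4.08 and 2.93 CPM in BA. Of 6 tested copies of *TUB6* 1 was a DEG higher in PS and 1 was lower. *MAP65-5* Potri.003G192400, which bundles microtubules, rose (1.83), and the kinesin genes *ATK4* Potri.013G011500 and *KP1* Potri.001G467600 fell (-1.84 and -1.79). Ribosomal protein genes had small positive changes, with a median of 0.34 over 213 genes, of which 15 were DEGs higher in PS and 1 was lower. Their summed levels were 26267 to 27041 CPM in the PS libraries, against 20809.9 to 22089 CPM in the BA libraries.

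Expansins, which loosen the walls of growing cells, rose in PS more often than they fell. In this list 20 of 40 members were tested, of which 12 were DEGs higher in PS and 4 were DEGs lower in PS, with a median of 1.97. *EXPA5* (Potri.017G085300, chromosome 17, 10269461 to 10270470) had 73.1, 73.0 and 85.4 CPM in PS, against 0 counts in all 3 BA libraries, at least 764-fold higher in PS (adjusted p = 8.1e-15). *EXPA1* Potri.004G123200 had 96.1, 95.5 and 103 CPM in PS, against 0.119, 0 and 0 CPM in BA, a count ratio of 2920 PS over BA (95% counting interval 524 to 115000). *EXPA8* Potri.013G154700 had 216, 223 and 241 CPM in PS, against 0.715, 0.398 and 1.15 CPM in BA (log2 fold change 8.17 ± 0.14 (SE), adjusted p = 3.75e-16). *EXPB3* Potri.013G134300 had 43.3, 42.5 and 50.1 CPM in PS, against 0.596, 0.498 and 0 CPM in BA. Xyloglucan endotransglucosylases (*XTH*), which cut and rejoin wall polymers, were split, with 6 DEGs higher in PS and 10 lower of 22 tested. *XTH5* (EXGT-A4) had 443, 431 and 494 CPM in PS, against 28.7, 26.6 and 26.1 CPM in BA for Potri.001G071000 (log2 fold change 4.07 ± 0.071 (SE), adjusted p = 3.7e-17) and 251, 264 and 288 CPM in PS, against 62.3, 63.6 and 64.0 CPM in BA for Potri.003G159700 (log2 fold change 2.08 ± 0.064 (SE), adjusted p = 3.08e-14). On the other side *XTH28* Potri.008G138400 had 6.88, 8.08 and 6.41 CPM in PS, against 75.9, 76.5 and 83.3 CPM in BA (log2 fold change -3.46 ± 0.1 (SE), adjusted p = 1.52e-14). Summed *XTH* levels were 1667 to 1905 CPM in the PS libraries, against 2943 to 3168 CPM in the BA libraries.

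Pectin enzymes, which tune the stiffness and adhesion of young walls, moved both ways. For primary wall and pectin 114 of 264 members were tested, of which 33 were DEGs higher in PS and 20 were DEGs lower in PS. The pectin lyase-like gene Potri.014G117100 had 87.7, 91.4 and 93.0 CPM in PS, against 0.357, 0 and 0 CPM in BA, a count ratio of 898 PS over BA (95% counting interval 307 to 4360), and the invertase and pectin methylesterase inhibitor-like gene Potri.006G137800 had 49.6, 48.6 and 49.2 CPM in PS, against 0.596, 0.398 and 0.355 CPM in BA. Pectin methylesterase gene *PME61* (Potri.014G149700) had 0 counts in all 3 PS libraries, against 36.2, 41.3 and 39.8 CPM in BA, at least 372-fold lower in PS (adjusted p = 1.25e-13).

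Lignin genes were divided by copy. For lignin synthesis 49 of 89 members were tested, of which 11 were DEGs higher in PS and 13 were DEGs lower in PS, with a median of -0.18. The 4 members named by size of change were all higher in PS and at low levels. *CYP98A3* Potri.016G031100, which hydroxylates the ring of lignin precursors, had 16.8, 18.2 and 17.5 CPM in PS, against 1.19, 1.39 and 1.42 CPM in BA (log2 fold change 3.69 ± 0.17 (SE), adjusted p = 8.05e-12). *4CL2* Potri.018G094200, a ligase earlier in the pathway, had 10.1, 8.39 and 11.4 CPM in PS, against 0.476, 0.995 and 0.0888 CPM in BA, and *C4H* Potri.018G146100, the hydroxylase before it, had 6.88, 5.93 and 5.13 CPM in PS, against 0.953, 1.19 and 0.267 CPM in BA. The alcohol dehydrogenase-like gene *CAD7* Potri.016G065300 had a log2 fold change of 2.79. The *CYP98A3* copy had 11.5 FPKM in PS, 0.867 in BA and 0.0254 in XY, so that it was near 0 in BA and in XY. Summed over the list, FPKM were 2257 to 2282 in PS, 2418 to 2435 in BA and 27099 to 27699 in XY. Other copies of the enzymes named also went the other way. Of *C4H* 1 of 3 tested copies was a DEG higher in PS and 2 were lower. Of *4CL2* and of *PAL1* 1 of 5 was higher and 2 were lower. Of *CYP98A3* 2 of 3 were higher and 1 was lower, and of *CAD7* 3 of 5 were higher and 0 lower. The 2 tested copies of *CYP84A1* were both lower.

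Flavonoid genes, whose products are pigments, sunscreens and tannins, rose in PS. In this list 43 of 77 members were tested, of which 30 were DEGs higher in PS and 2 were DEGs lower in PS, with a median of 1.42 and summed levels of 2474 to 2491 CPM in the PS libraries, against 873 to 877 CPM in the BA libraries. Chalcone synthase (*CHS*), the entry enzyme, was a DEG higher in PS in all 5 tested copies. It had 50.5, 48.6 and 52.5 CPM in PS, against 4.41, 2.69 and 4.44 CPM in BA for Potri.014G145100 (log2 fold change 3.71 ± 0.14 (SE), adjusted p = 3.79e-13) and 22.3, 25.3 and 23.7 CPM in PS, against 1.19, 0.796 and 1.07 CPM in BA for Potri.012G138800. *ANS* Potri.003G119100, an enzyme of anthocyanidin synthesis, had 5.91, 3.99 and 6.09 CPM in PS, against 0.119, 0 and 0 CPM in BA, a count ratio of 158 PS over BA (95% counting interval 27.9 to 6270). The regulator *MYB5* was split between its 5 tested copies, of which 2 were DEGs higher in PS and 2 were lower. The latter are the 2 lower DEGs of this list. The copy Potri.001G005100 had 6.24, 4.09 and 6.20 CPM in PS, against 0.953, 0.796 and 0.622 CPM in BA.

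Hormone genes moved in both directions, and their medians lay between -0.49 (gibberellin) and 0.47 (jasmonate and wounding). For auxin 161 of 261 members were tested, of which 45 were DEGs higher in PS and 35 were DEGs lower in PS. The median was 0.02 and changed sign when a BA library was left out. The largest changes were in repressor and SAUR genes, which auxin induces rapidly. *IAA14* Potri.002G044900, a repressor of auxin response, had 17.7, 18.4 and 15.2 CPM in PS, against 0 counts in all 3 BA libraries, at least 170-fold higher in PS (adjusted p = 1.3e-11). The SAUR-like gene Potri.017G043500 was at least 107-fold higher in PS, with 10.9, 11.4 and 10.2 CPM in PS, against 0 counts in all 3 BA libraries. The SAUR-like genes Potri.003G167400 and Potri.001G060400 were the reverse, with 0 counts in all 3 PS libraries, against 16.6, 16.2 and 19.8 CPM in BA, and 0 counts in all 3 PS libraries, against 7.26, 7.96 and 8.53 CPM in BA. They were at least 168-fold lower in PS and at least 75.6-fold lower in PS.

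For gibberellin, which drives internode elongation, 46 of 100 members were tested, of which 12 were DEGs higher in PS and 17 were DEGs lower in PS. *GA20OX2*, an enzyme late in gibberellin synthesis, rose in both named copies. It had 28.7, 28.9 and 27.8 CPM in PS, against 0, 0.0995 and 0.355 CPM in BA for Potri.012G132400 (log2 fold change 7.30 ± 0.27 (SE), adjusted p = 3.85e-13) and 26.3, 28.02 and 30.04 CPM in PS, against 0.119, 0 and 0.533 CPM in BA for Potri.005G184400. A related gene, listed as AT2301 (Potri.014G073700), had 0.43, 0 and 0.107 CPM in PS, against 29.3, 31.6 and 32.1 CPM in BA (log2 fold change -7.36 ± 0.28 (SE), adjusted p = 9.37e-13). The gibberellin-regulated gene Potri.001G254100 had 239, 235 and 296 CPM in PS, against 0, 0 and 1.07 CPM in BA. For brassinosteroids 67 of 103 members were tested, of which 17 were DEGs higher in PS and 14 were DEGs lower in PS. *ROT3* (Potri.007G018400), a cytochrome P450 of brassinosteroid synthesis, had 76.6, 74.4 and 74.7 CPM in PS, against 0, 0.199 and 0.533 CPM in BA (log2 fold change 8.06 ± 0.22 (SE), adjusted p = 2.38e-13). The sterol methyltransferase gene *SMT1* (CPH, Potri.001G263700) had 46.7, 44.1 and 50.4 CPM in PS, against 0.238, 0 and 0 CPM in BA, a count ratio of 698 PS over BA (95% counting interval 193 to 5770). *BR6OX1* (Potri.004G117700), an oxidase at the end of the pathway, had 6.24, 6.44 and 6.95 CPM in PS, against 0, 0.398 and 0.178 CPM in BA, and *BEN1* (Potri.006G087200), which inactivates brassinosteroids, had 7.96, 7.98 and 6.20 CPM in PS, against 0.476, 0.199 and 0 CPM in BA, while 2 other *BEN1* copies were DEGs lower in PS. Also lower in PS were both tested copies of each of the receptor genes *BRL1* and *BRL2* and 3 of 5 copies of *BEH4*, a transcription factor of the response. The shares of the list were 25.4% higher and 20.9% lower.

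Ethylene genes were more often lower in PS. Here 36 of 55 members were tested, of which 4 were DEGs higher in PS and 11 were DEGs lower in PS, with a median of -0.40. Of the receptor genes, *ERS1* (1 of 1) and *ETR2* (2 of 2) were DEGs lower in PS and *ETR1* (0 of 2) and *EIN4* (0 of 2) were not, and of the signalling genes 2 of 4 copies of *CTR1*, 2 of 4 of *EBF1*, 1 of 4 of *EIN3* and 0 of 2 of *EIN2* were. *ERS1* Potri.002G201500 had 24.7, 28.1 and 28.5 CPM in PS, against 146, 146 and 148 CPM in BA (log2 fold change -2.43 ± 0.07 (SE), adjusted p = 1.52e-14), and the kinase gene *CTR1* Potri.010G234700, which holds the pathway off, had 6.02, 7.77 and 7.16 CPM in PS, against 41.7, 49.2 and 47.3 CPM in BA. *EBF1* Potri.018G130800, which removes the transcription factor EIN3, had 24.6, 28.4 and 24.8 CPM in PS, against 159, 165 and 173 CPM in BA (log2 fold change -2.67 ± 0.073 (SE), adjusted p = 8.1e-15). The ethylene synthesis gene *ACS6* Potri.001G099400 was higher in PS, with 5.70, 5.52 and 5.24 CPM in PS, against 1.55, 1.29 and 1.51 CPM in BA. The other DEGs higher in PS were also synthesis genes, *ACO1* (1 of 1) and *ACO4* (2 of 4, with 1 lower). For cytokinin 64 of 93 members were tested, of which 10 were DEGs higher in PS (15.6%, near the 14.6% of all genes) and 14 were DEGs lower in PS (21.9%, where all genes had 14.0%). *IPT5* Potri.008G202200, which makes cytokinin, and the response activator *ARR11* Potri.010G053100 were lower in PS (log2 fold changes -2.99 and -2.83), and the response repressor *ARR9* Potri.001G027000 was higher (2.47).

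Jasmonate and wounding genes had 24 DEGs higher in PS and 7 lower of 60 tested. *LOX2*, a lipoxygenase of jasmonate synthesis, had 123, 139 and 162 CPM in PS, against 0.834, 1.19 and 1.24 CPM in BA for Potri.017G046200 (log2 fold change 6.98 ± 0.15 (SE), adjusted p = 7.75e-15) and 69.3, 69.0 and 66.7 CPM in PS, against 0.953, 0.498 and 0.622 CPM in BA for Potri.001G015500. *CYP94B1* Potri.002G042200, which breaks down the active hormone, had 30.2, 34.1 and 34.9 CPM in PS, against 0.715, 0.697 and 0.888 CPM in BA. The lipoxygenase gene *LOX1* Potri.013G022100 had 10.6, 9.51 and 8.87 CPM in PS, against 0 counts in all 3 BA libraries, at least 95.8-fold higher in PS. For chitinases, PR proteins and Kunitz inhibitors 63 of 144 members were tested. Of these 35 were DEGs higher in PS and 17 were DEGs lower in PS, with a median of 2.13. Of the 144 members 81 had 0 counts in all BA libraries and 43 had 0 counts in all PS libraries, so those tested more often had counts in PS. The families of this list went different ways. Of 24 tested thaumatin-like PR genes 3 were DEGs higher in PS and 15 were lower, while the 6 tested copies of *HCHIB* were all higher. The chitinase genes Potri.009G141800 (*HCHIB*) and Potri.019G094000 (*EP3*), whose products cut fungal walls, were at least 124-fold higher in PS and at least 97.8-fold higher in PS. They had 14.1, 12.2 and 11.2 CPM in PS, against 0 counts in all 3 BA libraries, and 11.1, 10.7 and 7.80 CPM in PS, against 0 counts in all 3 BA libraries.

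The gene with the highest mean CPM in PS, a unit that takes no account of gene length, was a phosphorylase-like gene of the family that holds bark storage proteins of poplar. Potri.019G050200 (chromosome 19, 7540268 to 7541930) had 3829, 3615 and 3433 CPM in PS, against 9.77, 9.55 and 10.5 CPM in BA (log2 fold change 8.51 ± 0.071 (SE), adjusted p = 8.39e-21). On chromosome 13, Potri.013G080300 had 1523, 1246 and 1564 CPM in PS, against 4.17, 2.29 and 3.29 CPM in BA (log2 fold change 8.81 ± 0.19 (SE), adjusted p = 3.79e-08), Potri.013G080400 had 651, 637 and 721 CPM in PS, against 1.19, 1.79 and 0.799 CPM in BA, and Potri.013G082800 had 828, 813 and 787 CPM in PS, against 2.02, 1.79 and 1.87 CPM in BA. They carry the same description, and reads may have been divided between them. In the list of storage proteins and nitrogen reserves 24 of 52 members were tested, of which 16 were DEGs higher in PS and 1 was a DEG lower in PS. Of the 24 tested, 12 were phosphorylase-like genes of this 1 description, and 11 of them were DEGs higher in PS. So the high median of the list rests largely on that family. Summed levels were 8381 to 8941 CPM in the PS libraries, against 1007 to 1057 CPM in the BA libraries. No BA library came within 100-fold of a PS library for the 4 genes named.

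Sugar genes included some of the largest falls. In the list of sucrose, starch and sugar transport 73 of 115 members were tested, of which 15 were DEGs higher in PS (20.5%) and 16 were DEGs lower in PS (21.9%), with a median of 0.28. The MtN3-like (SWEET family) sugar transporter gene Potri.015G101500 had 0, 0.102 and 0 CPM in PS, against 167, 170.4 and 169 CPM in BA, a count ratio of 4800 BA over PS (95% counting interval 862 to 190000). It stood beside *SUC2* among genes near 0 in PS. The plastid β-amylase gene *BAM3* (Potri.003G085500), which breaks down starch and is another gene than the receptor *BAM3*, was at least 82.9-fold higher in PS, with 7.09, 8.999 and 8.98 CPM in PS, against 0 counts in all 3 BA libraries. Aquaporins, the water channels, were split by gene. The plasma membrane aquaporin gene *PIP1A* (Potri.009G128500) had 160.4, 175 and 193 CPM in PS, against 0.357, 0.398 and 0.355 CPM in BA (log2 fold change 8.84 ± 0.14 (SE), adjusted p = 1.08e-17), and *PIP2;8* (Potri.005G109300) had 18.3, 17.3 and 19.6 CPM in PS, against 0 counts in all 3 BA libraries. *PIP2;4* (Potri.009G013900) was at least 67.6-fold lower in PS, with 0 counts in all 3 PS libraries, against 6.79, 6.97 and 7.55 CPM in BA. Over the list, 11 of 38 tested aquaporin genes were DEGs higher in PS and 8 lower.

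Regulators of flowering and dormancy had 13 DEGs higher in PS and 3 lower of 52 tested. The 4 named by size of change were all higher. *SPL5*, a promoter of flowering controlled by a microRNA, had 10.3, 12.6 and 11.7 CPM in PS, against 1.67, 0.896 and 0.888 CPM in BA for Potri.011G116800 (log2 fold change 3.35 ± 0.23 (SE), adjusted p = 1.28e-09) and 9.89, 8.69 and 7.06 CPM in PS, against 0, 0.398 and 0.267 CPM in BA for Potri.001G398200. *SPL8* Potri.002G142200 had 8.71, 8.90 and 9.41 CPM in PS, against 1.07, 0.597 and 0.533 CPM in BA, and the *CONSTANS*-like gene *COL5* Potri.006G173600 had 11.9, 14.9 and 14.8 CPM in PS, against 0.357, 0.597 and 0.355 CPM in BA. Heat shock genes had 7 DEGs higher in PS and 27 lower of 126 tested. The factor genes *HSFB4* Potri.002G124800 and *HSFA6B* Potri.002G048200 were lower (log2 fold changes -2.35 and -3.06). The chaperone gene *HSP17.6II* Potri.006G223900 was higher, with 932, 957 and 939 CPM in PS, against 177, 187 and 170.2 CPM in BA (log2 fold change 2.41 ± 0.052 (SE), adjusted p = 4.76e-16).

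Across all genes, the largest falls were in genes of several families. *RL6* (Potri.002G035000, chromosome 2, 2251634 to 2253434), a small MYB-like gene related to RADIALIS, had 0 counts in all 3 PS libraries, against 252, 234 and 259.7 CPM in BA, at least 2360-fold lower in PS (adjusted p = 5.23e-17). *CYP78A6* (Potri.001G083900, chromosome 1, 6649663 to 6652120), a cytochrome P450 that in *Arabidopsis* promotes seed growth, had 0, 0 and 0.107 CPM in PS, against 621, 647 and 636 CPM in BA, a count ratio of 18100 BA over PS (95% counting interval 3240 to 714000). An amino acid transporter gene (Potri.014G146700) and a nodulin MtN21-like transporter gene (Potri.005G176200) were at least 1500-fold lower in PS and at least 1120-fold lower in PS. They had 0 counts in all 3 PS libraries, against 149, 155 and 168 CPM in BA, and 0 counts in all 3 PS libraries, against 118, 114 and 122 CPM in BA. The cation exchanger gene *CHX20* (Potri.006G054700) had 0, 0.204 and 0.107 CPM in PS, against 155, 156 and 162 CPM in BA, and the mini zinc finger gene *MIF2* (Potri.004G126600) had 0, 0 and 0.107 CPM in PS, against 46.8, 45.8 and 47.5 CPM in BA. These genes were all expressed in every BA library and at or near 0 in PS.

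Among the largest rises outside the lists, *ALDH3F1* (Potri.001G259100), an aldehyde dehydrogenase, had 72.1, 74.8 and 73.3 CPM in PS, against 0 counts in all 3 BA libraries, at least 727-fold higher in PS (adjusted p = 3.16e-15). The acyltransferase-like gene Potri.010G208100 was at least 353-fold higher in PS, the GDSL lipase-like genes Potri.013G115900 and Potri.001G191400 were at least 262-fold higher in PS and at least 237-fold higher in PS, and the dirigent-like gene Potri.001G023600 was at least 258-fold higher in PS. A polyketide cyclase-like gene, Potri.008G131200, combined a large change with a high level, with 786, 786 and 717 CPM in PS, against 0.238, 0.796 and 0.178 CPM in BA (log2 fold change 10.84 ± 0.17 (SE), adjusted p = 2.71e-13). *BGLU32* (Potri.005G059500), a β-glucosidase, had 2719, 2736 and 2850.1 CPM in PS, against 11.7, 11.3 and 13.9 CPM in BA (log2 fold change 7.80 ± 0.076 (SE), adjusted p = 2.88e-20). The gene with the highest mean CPM in BA, the peroxidase gene *PRXR1* (Potri.004G015300), was high in both tissues, with 2937, 2932 and 3033 CPM in PS, against 4011, 4042 and 4107 CPM in BA, and was no DEG (-0.45). The translation factor-like gene Potri.006G130900 had 1485, 1514 and 1599.9 CPM in PS, against 2773, 3545 and 3786 CPM in BA (log2 fold change -1.14 ± 0.12 (SE), adjusted p = 0.000431), and *TCTP* (Potri.010G013400), a gene of growing cells, had 3262, 3356 and 2770.1 CPM in PS, against 3212, 3211 and 2927 CPM in BA, with overlapping groups.

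DEGs of 1 direction often lay beside each other. Among genes tested, ordered along the chromosomes, 21.9% of DEGs higher in PS (756 of 3448) had a DEG higher in PS as the next gene, where 14.6% of all genes tested were such DEGs. For DEGs lower in PS the share was 21.5% (711 of 3312), against 14.0%. The longest run held 9 genes on chromosome 9 (10462224 to 10531833 of the *P. trichocarpa* genome used by the authors). It held SAUR-like genes and the aquaporin genes *PIP1;4* (Potri.009G128200) and *PIP1A*. A run of 8 DEGs lower in PS on chromosome 13 (14870394 to 14907618) held gene models like organelle genes. Neighbours in such runs may be tandem copies that share reads.

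The same comparison was made in *PagDET2*-OE trees, whose 6 libraries share none with the wild type. There 3750 of 24549 genes tested were DEGs higher in PS (15.3%) and 3623 were lower (14.8%). Of the wild-type DEGs higher in PS 2957 were DEGs in the same direction, which is 82.8% of the 3573 wild-type and 78.9% of the 3750 *PagDET2*-OE genes, and 0 were DEGs in the opposite direction. Of those lower in PS 2683 were shared (78.3% of the wild-type and 74.1% of the *PagDET2*-OE genes), and 2 were opposite. These 2 were chosen after their values were seen, and neither kept its wild-type call by limma on log2(FPKM + 1) (-0.52 and -0.93) or by glmTreat (adjusted p = 0.165 and 0.345). *DGK2* (Potri.005G070900), a lipid kinase gene, had 3.01, 2.86 and 3.1 CPM in PS, against 7.03, 6.17 and 7.99 CPM in BA in the wild type, and a mean of 15.4 CPM in PS and 7.51 CPM in BA of *PagDET2*-OE. Potri.001G192800, with no description, had 2.04, 1.43 and 1.18 CPM in PS, against 3.1, 4.08 and 3.55 CPM in BA in the wild type, and a mean of 5.31 CPM in PS and 2.55 CPM in BA of *PagDET2*-OE.

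**Figure D5:**
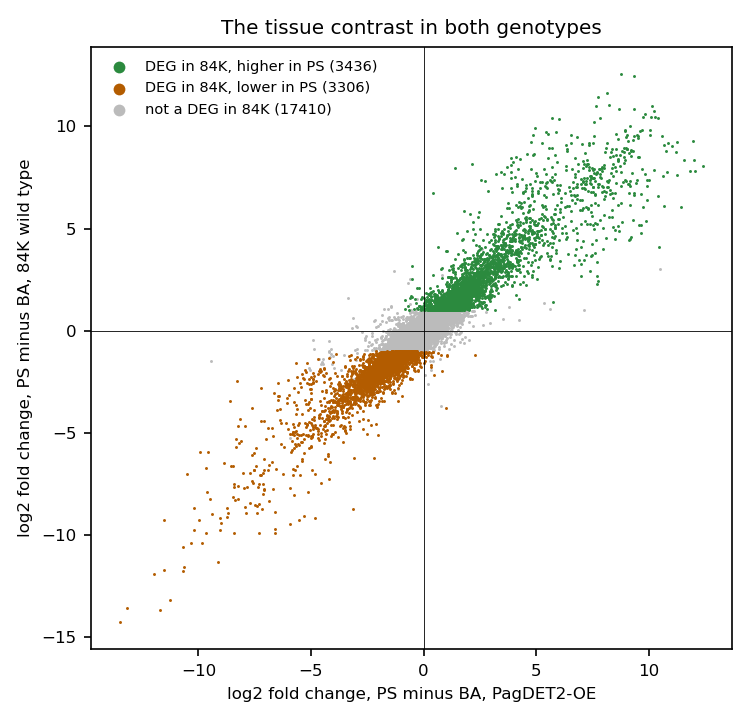
Log2 fold change (PS minus BA) in *PagDET2*-OE (x axis) and in 84K wild type (y axis) for the 24152 genes tested in both genotypes, each point 1 gene. Green and orange points are the wild-type DEGs, 3436 higher in PS and 3306 lower in PS, and grey points the other 17410 genes. Points at large changes lie in the upper right and lower left of the plot.

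Whether the tissue difference itself differed between genotypes was tested as an interaction over the 12 PS and BA libraries. Of 25248 genes tested 2693 had an adjusted p of at most 0.05 (10.7%), 1339 (5.30%) with a higher and 1354 (5.36%) with a lower log2 fold change in the wild type. That count rests in part on 1 library, and was 1750 without wild-type PS replicate 2. By the smallest adjusted p, *BGLU32* came first, with a log2 fold change of 7.80 in the wild type and 11.84 in *PagDET2*-OE. *XTH5* Potri.003G159700 was higher in PS in the wild type (2.08) and not in *PagDET2*-OE (-0.18). Potri.004G020100, a polyketide cyclase-like gene, had -4.35 in the wild type and -6.39 in *PagDET2*-OE. A calcium-binding EF-hand gene, Potri.012G048200, had -0.31 and 1.83, and the DnaJ-like gene Potri.002G020800 had -1.81 and -0.41. Of the genes named, 19 passed the interaction test with a difference under 2-fold, and part of them is given here. The wild-type fall in PS was smaller for *SUC2* Potri.019G085800 (0.81 in wild type minus *PagDET2*-OE, adjusted p = 6.45e-07), *CLV1* Potri.005G241500 (0.72), *APL* Potri.010G174100 (0.43), *GSL7* (0.56) and *ABCG11* Potri.005G073100 (0.82). It was larger for *CESA4* (-0.69, adjusted p = 0.000156), *CESA7* (-0.60), *CESA8* (-0.40), *NST1* (-0.80), *CTL2* (-0.81, adjusted p = 1.29e-06) and *AIL5* Potri.006G167700 (-0.41). *STM* Potri.011G011100 had -0.25 in the wild type and 0.07 in *PagDET2*-OE. *AKT2* rose less in the wild type (0.91) than in *PagDET2*-OE, where it was a DEG (1.54). *SUC2* Potri.013G115200, *PXY* Potri.001G126100, *WOX4* Potri.014G025300, *XCP1*, *CER1* and *YAB5* Potri.018G129800 did not pass the interaction test, which does not show that their differences were equal.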

How the data were processed

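RNA-seq libraries of PS and BA from 84K wild-type were analysed (3 each, labels SAM and CZ), with the 6 PS and BA libraries of *PagDET2*-OE for the repeat. The authors aligned reads to the *P. trichocarpa* v3.1 genome with HISAT2 (2.0.4), a genome of another species than the hybrid sampled, and counted fragments per gene with StringTie (1.3.0). They deposited the counts, with the FPKM they calculated by Perl script, for 42950 gene models, of which 15091 carry an *Arabidopsis* symbol and 10158 had no count in any library. Whether counting used strand is not given in the sources used here, so overlapping antisense genes cannot be told apart, and reads of near-identical copies may be shared or lost. Gene positions are those of the deposited table.

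Counts were filtered with filterByExpr (minimum count 10, minimum total 15, large group 10, proportion 0.7), scaled by TMM and tested with edgeR (4.0.16, R 4.3.3) by robust quasi-likelihood tests, PS minus BA, over the 6 wild-type libraries, and p-values were adjusted by Benjamini-Hochberg over every tested gene. SE were derived from the F statistics. The study's thresholds for DEGs were kept, a change of at least 2-fold with an adjusted p not above 0.05. The repeat used the same fit in *PagDET2*-OE, and the interaction a fit of the 12 libraries that takes tissues as independent. FPKM were used for levels in XY, for sums over lists and for a limma (3.58.1) alternative on log2(FPKM + 1). That alternative kept genes with a mean FPKM of at least 0.5 over the 6 wild-type libraries. The other alternatives were RLE, upper-quartile and library-total scaling, DESeq2 (1.42.0), no filter, 1 CPM in 3 libraries, glmTreat, an adjusted p of 0.01, all 18 libraries, a replicate block, no organelle-like models, each library left out, and, added after seeing the data, replicates 1 and 2 summed and replicate 3 left out.

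The members of the 32 lists, the rule for named genes and the comparisons were chosen with earlier results of these data known. Named genes are the 12 largest changes in each direction (mean of at least 20 CPM), up to 4 DEGs of each list (at least 5 CPM), tested textbook markers, the 3 genes with the highest mean CPM in each tissue and the 5 genes with the smallest interaction p. A gene family named by its counts alone and the 2 genes with opposite calls were chosen after their values were seen. Library totals of 8407928 to 11379931 counts make 3 counts equal to 0.264 to 0.357 CPM per library. Intervals for 1 to 3 counts are exact at the 95% level.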

Additional observations from a re-analysis of the deposited data

Results flagged for a closer look

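The tissue difference was not the same in both genotypes for 2693 of 25248 genes (10.7%), by an interaction test at an adjusted p of at most 0.05 (edgeR's quasi-likelihood test). Of the 179 genes named, 46 passed it, and 27 of them differed by at least 2-fold. The 27 include the 5 genes named for the smallest interaction p and the 2 with opposite calls. Those were picked by this difference, so the count of named genes cannot be set against the 10.7%. The 27 genes are given here as the log2 fold change of the wild type minus that of *PagDET2*-OE, fitted values that depend on the prior count where a tissue held 0 counts. Among developmental and vascular genes these were *ATH1* Potri.006G230700 (-1.28), *LOB* Potri.015G082200 (-1.62), *GRF1* Potri.014G012800 (-1.14), *ANT* Potri.005G148400 (-1.25), *SULTR2;1* Potri.005G079000 (-4.03), *PP2-A10* Potri.015G120100 (1.77) and *IRX9* Potri.016G086400 (-1.15). Among surface, wall and phenylpropanoid genes they were *PDF1* Potri.005G200900 (-2.38), *CER3* Potri.018G099400 (-1.12), *XTH5* Potri.003G159700 (2.25), *CYP98A3* Potri.016G031100 (-1.26) and *ANS* Potri.003G119100 (3.97). Among hormone, defence, storage and flowering genes they were *IAA14* Potri.002G044900 (4.33), *ROT3* Potri.007G018400 (-4.37), *EP3* Potri.019G094000 (4.69), the chitinase-like gene Potri.006G188300 (3.16), *SPL8* Potri.002G142200 (-1.93) and the phosphorylase-like genes Potri.013G080400 (-1.99), Potri.013G080300 (-1.97), Potri.013G082800 (-2.50) and Potri.019G050200 (-1.09). The others were *BGLU32* Potri.005G059500 (-4.05), Potri.004G020100 (2.03), Potri.012G048200 (-2.15), Potri.002G020800 (-1.42), *DGK2* Potri.005G070900 (-2.29) and Potri.001G192800 (-2.26). In groups of 3 no single library was tested for standing apart.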

How the results depend on the processing

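The counts of DEGs between PS and BA in the wild type stayed within 1.5 times the values given and no gene was called in the opposite direction under any alternative run. They were lowest with glmTreat against a 2-fold change (2670 higher and 2410 lower in PS) and highest without a filter on low counts (4498 and 3963), and DESeq2 gave 3550 and 3392. Limma on FPKM gave 2949 and 2700, which included 78.9% and 75.6% of the DEGs. With 1 library left out they ranged from 3634 to 3799 higher and from 3451 to 3546 lower, and with replicates 1 and 2 summed they were 3865 and 3581. The interaction count ranged from 1750 to 2959 with 1 library left out, and the lowest value, without wild-type PS replicate 2, was the one count to move by over 1.5 times. The cause was not tested. The auxin median (0.02) was -0.02 without BA replicate 1 and -0.03 without BA replicate 3, and ranged from -0.03 to 0.07 with 1 library left out. *PHB* Potri.001G372300 (0.02) was -0.01 without BA replicate 2, in a range of -0.01 to 0.04. *TCTP* Potri.010G013400 (0.01) was -0.02 and -0.04 without PS replicates 1 and 2, -0.04 without BA replicate 3 and -0.01 with replicates 1 and 2 summed, in a leave-one-out range of -0.04 to 0.09. None of these 3 was past a threshold. Over all alternatives, named genes kept their call and direction in 3559 cases, lost the call in 16 (10 genes, by glmTreat or limma and, for *ATH1* Potri.006G230700, also without 1 library) and turned sign in 5. List medians moved by more than the spread in 54 cases of 593, and in 2 more, those of auxin, they also changed sign. Genes near 1 CPM are limited by depth.

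The labels number the libraries 1 to 3 in each tissue, but do not say that a number marks a tree. Deviations from the group means correlated at 0.0902, 0.074 and 0.1272 between wild-type PS and BA libraries of the same number, and at -0.0852 to 0.0124 between those of other numbers, so that each wild-type library correlated best with its own number, a hint from the data and not from the design. In *PagDET2*-OE the same numbers gave 0.0396, 0.0112 and 0.0721, and other numbers -0.0629 to 0.043, with replicates 1 and 2 of PS each closer to another number. Not every pair passed 0.1. With a replicate block the counts were 3596 higher and 3444 lower in the wild type, 3757 and 3616 in *PagDET2*-OE, and 2661 for the interaction. The block changed no call of a named gene.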
